A study of Mus musculus with 2 samples.

Results

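Mincle and related C-type lectins were followed as 10 of the 25909 genes in the single-cell count matrix: Clec4e (Mincle), Clec4d, Clec4n, Clec7a, Clec12a, Clec4a1, Clec4a3, Clec10a, Cd209a and Mgl2. They were chosen by name, with earlier results of these data known, so their counts beside the share of all genes are a description. All 10 were measured. Single-cell mRNA libraries came from CD11b+ CD45.2+ liver cells that lacked CD90.2, B220, NK1.1 and SiglecF, sorted from 4 mice, tagged with hashtag antibodies and pooled into one BD Rhapsody capture. The mice were an Egr2 fl/fl mouse on normal diet (ND), a Lyz2 Cre/+.Egr2 fl/fl mouse on ND, and one mouse of each genotype on CDA-HFD, a high-fat diet with defined amino acids and no choline, which gives steatohepatitis with fibrosis in mice. Both Egr2 alleles were floxed in all 4 mice, so the controls carried the floxed alleles too. The Lyz2 Cre/+.Egr2 fl/fl mice, called Lyz2-Cre below, in addition carried Cre in the lysozyme 2 locus, which is active in monocytes, macrophages and neutrophils. The labels used here give neither the age of the animals nor the length of feeding. Each group was 1 mouse, so no difference between groups has a replicate check. Intervals in brackets are 95% intervals of counting error only. Whether the counts are molecules or reads is not clear from the sources used here, and the intervals are too narrow if they are reads.

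The libraries held 15384 cells with 1 hashtag, of which 1590 to 6186 came from each mouse. The summed counts were 32029953 and 27840300 in the ND Egr2 fl/fl and ND Lyz2-Cre mouse and 85227192 and 90124521 in the CDA-HFD Egr2 fl/fl and CDA-HFD Lyz2-Cre mouse, with medians of 13168 to 16459 counts per cell. No barcode was shared between mice. Egr2, the deleted gene, reached 13.3 CPM (counts per 1000000 counts) with ND and 49.4 CPM with CDA-HFD in Egr2 fl/fl mice, against 5.85 and 18.2 CPM in Lyz2-Cre mice. Lyz2, the locus that holds Cre, was at 8915 CPM with ND and 11018 CPM with CDA-HFD in the controls, against 4016 and 5876 CPM in Lyz2-Cre mice. Both genes were lower in each mouse labelled Lyz2-Cre. Whether the counted end of the Egr2 transcript lies in the deleted segment is not given in the sources used here.

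C-type lectins are surface receptors through which myeloid cells recognise microbial glycans and glycolipids and material from dying cells. Mincle, MCL (encoded by Clec4d) and Dectin-2 (Clec4n) pair directly or through one another with the Fc receptor gamma chain (Fcer1g), and Dectin-1 (Clec7a) carries its own activating motif. All of these signal through Syk and Card9 to NF-kB. Clec12a and the DCIR family are mostly inhibitory or of poorly known signalling, while Clec10a, Mgl2 and Cd209a bind sugars and serve uptake in dendritic cells and macrophages.

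In mouse build GRCm38, 7 of the 10 genes lie on chromosome 6. Clec4a1 at chr6:122921848-122934619 (plus strand), Clec4a3 at chr6:122952515-122969875 (plus), Clec4n at chr6:123229843-123247021 (plus), Clec4d at chr6:123262111-123275265 (plus) and Clec4e at chr6:123281789-123289870 (minus) follow each other in that order. Clec12a at chr6:129342691-129365303 (plus) and Clec7a at chr6:129461591-129472779 (minus) lie further along the chromosome. Clec7a is annotated as a polymorphic pseudogene in this annotation and the gene models of the 10 members overlapped no other gene. Mgl2 at chr11:70130329-70137550 (plus) and Clec10a at chr11:70156197-70170834 (plus) are close paralogs. Of the 50-base stretches of their transcripts, 13.1% of those of Mgl2 and 9.02% of those of Clec10a occurred in another gene, so their counts are uncertain between each other. Cd209a lies at chr8:3743397-3748984 (minus).

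The 250 bases before the transcription start are shown for the lectins that differed most with diet, Clec4e and Clec4d, and for Clec7a, which differed most with genotype on CDA-HFD. The sequences are from RefSeq on GRCm38.p6, which gave a start for 8 of the 10 members, and are written 5′ to 3′ on the strand of the gene. Clec4e is at chr6:123289872-123290121 on the minus strand, Clec4d at chr6:123261857-123262106 on the plus strand and Clec7a at chr6:129472780-129473029 on the minus strand. Capitals mark matches, on either strand, to the PU.1 core GAGGAA or to the C/EBP motif TTGCNNAA.
Clec4e: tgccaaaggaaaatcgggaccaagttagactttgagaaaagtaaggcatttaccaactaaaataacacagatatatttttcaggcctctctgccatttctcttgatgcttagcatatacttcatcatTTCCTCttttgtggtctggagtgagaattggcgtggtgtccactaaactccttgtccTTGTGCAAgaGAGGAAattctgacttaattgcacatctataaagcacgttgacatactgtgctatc
Clec4d: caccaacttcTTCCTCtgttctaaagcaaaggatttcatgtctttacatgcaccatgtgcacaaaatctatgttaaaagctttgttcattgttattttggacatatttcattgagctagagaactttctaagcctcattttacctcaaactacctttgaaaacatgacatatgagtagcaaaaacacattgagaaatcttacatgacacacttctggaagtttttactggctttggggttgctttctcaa
Clec7a: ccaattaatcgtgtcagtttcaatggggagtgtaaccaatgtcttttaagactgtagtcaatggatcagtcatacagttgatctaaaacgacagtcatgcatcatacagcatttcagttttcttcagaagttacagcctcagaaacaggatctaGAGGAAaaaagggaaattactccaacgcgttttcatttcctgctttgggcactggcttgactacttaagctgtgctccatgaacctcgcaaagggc

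The Clec4e window held GAGGAA at 56 bases and, on the reverse strand, at 123 bases before the start, and the C/EBP motif at 66 bases. The letters GAGGAA were in the windows of 6 of the 8 members with one and in 23.3% of 32851 windows of all genes. They were not in the window of Cd209a, and for Clec4a3 they were only at the other of its 2 listed starts. The C/EBP motif was in the windows of Clec4e and Clec12a and in 9.56% of all windows. The NF-kB motif (1.41% of all windows) and the EGR motif GCGNGGGCG (4.7%) were in none of the 8, and the AP-1 motif TGANTCA (6.75%) was in that of Clec12a alone. Both strands were searched for each motif. A match says only that these letters are present.

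Cells were placed in classes by the mean level of marker genes, none of which was a member, and 11136 of the 15384 cells (72.4%) passed. Classes are named "-like", since cells in a class share markers and were not otherwise identified. Of all cells, 2877 scored within 0.05 of the score mark and 4332 within 0.05 of the mark for the lead over the next class. The classes that hold most cells were Kupffer cell-like (1587 cells), Gpnmb Vcam1 Trem2 macrophage-like (811), Slc7a11 Srxn1 Il1rn macrophage-like (810), Ly6Chi monocyte-like (3066), Ly6Clo monocyte-like (1105), neutrophil-like (1826) and conventional dendritic cell 2-like (cDC2-like, 1196). The Gpnmb Vcam1 Trem2 class is called by genes that selected its cells, namely those of its marker list among its 10 leading genes. Cd207, Il18bp and Clec1b of that list were not among them. Its marker list was drawn up for Kupffer-like monocyte-derived macrophages, but none of the Kupffer cell genes Clec4f, Timd4, Vsig4 and Cd5l was among its 10 leading genes. It carried these genes below Kupffer cell-like cells and, other than Timd4, above the Slc7a11 Srxn1 Il1rn class. In the Egr2 fl/fl and Lyz2-Cre mouse on CDA-HFD it had 151 and 165 CPM of Clec4f, 75.6 and 157 CPM of Vsig4, 897 and 1213 CPM of Cd5l and 2.76 and 2.00 CPM of Timd4. The Slc7a11 Srxn1 Il1rn class had 2.55 and 4.11, 8.02 and 3.46, 44.6 and 26.7, and 2.43 and 2.47 CPM of these genes, and Kupffer cell-like cells on ND had 7311 and 7885, 3166 and 3404, 6191 and 6350, and 679 and 650.5 CPM. The share of cells placed in a class was 87.4% and 89.4% in the Egr2 fl/fl and Lyz2-Cre mouse on ND and 67.9% and 68.1% on CDA-HFD. The mice differed in the makeup of their cells, within what the CD11b+ sort let through. Kupffer cell-like cells made up 43.8% of cells in the ND Egr2 fl/fl and 50.8% in the ND Lyz2-Cre mouse, and 0.136% and 0.275% on CDA-HFD. Ly6Chi monocyte-like cells were 10.2% and 5.97% on ND and 21.4% and 24.9% on CDA-HFD, and neutrophil-like cells were 6.21% and 12.2% on ND and 13.9% and 11.4% on CDA-HFD. Slc7a11 Srxn1 Il1rn macrophage-like cells were 0.580% and 0.252% on ND and 7.53% and 5.71% on CDA-HFD. Levels below are CPM of the summed counts of a class in a mouse, given where the class had at least 50 cells, so that the macrophage-like classes are described on 1 diet each. The study chose Mincle and CD11c (Itgax) as surface markers from genes high in a monocyte-derived macrophage cluster of these same cells. The Slc7a11 Srxn1 Il1rn marker list included Spp1, F10, Cd9 and Fabp5, genes with which the study marked that kind of macrophage. Cells of the classes here were not matched to that cluster itself. The levels of Clec4e and Itgax in the macrophage-like classes are not independent evidence.

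**Figure D1:**
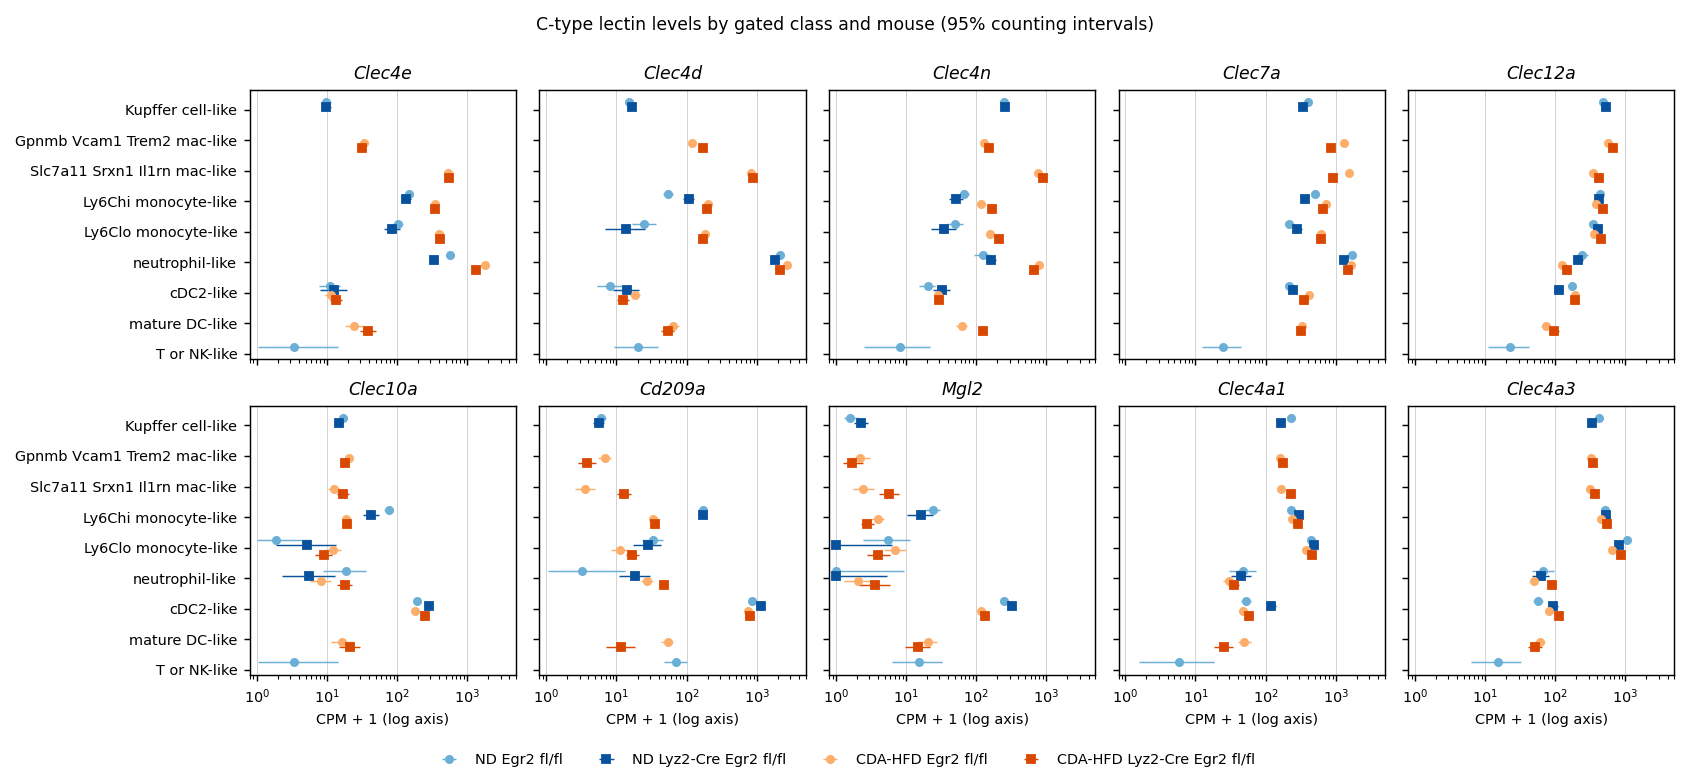
Level of each of the 10 lectins (CPM + 1, log axis) by class, 1 point per mouse with its 95% counting interval; colour gives the diet and genotype. Clec4e and Clec4d have their highest points in neutrophil-like cells, Clec12a and the Clec4a genes are spread over monocyte-like and macrophage-like cells, and Cd209a, Clec10a and Mgl2 have their highest points in cDC2-like cells.

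Clec4e binds mycobacterial cord factor, fungal glycolipids and SAP130 of dead cells. By the marker gate it was measured highest in neutrophil-like cells, then in Slc7a11 Srxn1 Il1rn macrophage-like cells and in both monocyte-like classes. In neutrophil-like cells it was at 567 CPM in the ND Egr2 fl/fl mouse, 339 CPM in the ND Lyz2-Cre mouse, 1820.5 CPM in the CDA-HFD Egr2 fl/fl mouse and 1334 CPM in the CDA-HFD Lyz2-Cre mouse. Both mice on CDA-HFD lay above both on ND. In Slc7a11 Srxn1 Il1rn macrophage-like cells Clec4e was at 527 CPM [512 to 543] in the Egr2 fl/fl and 551 CPM [532 to 570.0] in the Lyz2-Cre mouse on CDA-HFD. Both lay below both neutrophil-like values on that diet and between those on ND. Ly6Chi monocyte-like cells had 147, 135, 348 and 347 CPM and Ly6Clo monocyte-like cells 101.02, 83.7, 402 and 414 CPM in the same order of mice, so the ranges of these 2 classes overlapped. By clusters, Ly6Clo monocyte-like cells of the Egr2 fl/fl mice had 47.0 CPM of Clec4e on ND and 211 CPM on CDA-HFD. All other classes were far lower. Clec4e was at 32.4 and 30.8 CPM in Gpnmb Vcam1 Trem2 macrophage-like cells, at 10.04 to 12.5 CPM in cDC2-like cells of the 4 mice and at 8.85 and 8.86 CPM in Kupffer cell-like cells.

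The share of cells with a Clec4e count, pooled over the 4 mice here and for the lectins below, had the same leading classes. It was 75.2% in neutrophil-like cells at a median of only 4046.5 counts per cell, 71.7% in Slc7a11 Srxn1 Il1rn macrophage-like cells at a median of 16994.5, 52.2% in Ly6Chi and 47.4% in Ly6Clo monocyte-like cells. In Kupffer cell-like cells, at a median of 24764 counts, it was 11.5%, and in T or NK cell-like cells, which should lack Mincle, 5.51% at a median of 6604 counts. With every cell thinned to 3000 counts these shares were 71.2%, 49.1%, 33.4%, 33.2%, 2.46% and 3.15%. The 99 endothelial cell-like cells were at 16.2% before and 7.07% after thinning. The pooled shares mix diets. Neutrophil-like cells had a Clec4e count in 55.1% and 46.9% of cells in the Egr2 fl/fl and Lyz2-Cre mouse on ND and in 83.1% and 76.8% on CDA-HFD, and Ly6Chi monocyte-like cells in 34.9% and 25.3% against 53.6% and 54.6%. Of the 810 Slc7a11 Srxn1 Il1rn macrophage-like cells 443 and 353 were from CDA-HFD, and most Kupffer cell-like cells were from ND. In the ND Egr2 fl/fl mouse the thinned share was 2.78% in Kupffer cell-like and 1.92% (1 of 52 cells) in T or NK cell-like cells, and so few cells do not let these be ordered.

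Summed neutrophil marker genes were at 101141 to 140002 CPM in neutrophil-like cells and at 1350 and 911 CPM in Slc7a11 Srxn1 Il1rn macrophage-like cells of the Egr2 fl/fl and Lyz2-Cre mouse on CDA-HFD. Without cells that held any count of the neutrophil genes S100a9 or Retnlg, Clec4e in the latter class was at 456 and 502 CPM. With cells assigned by clusters instead of marker scores, this class had Clec4e at 216 and 258 CPM, and as a mean of cells the Egr2 fl/fl value was 875 CPM. Over the 4 mice, clusters named Ly6Chi monocyte-like ranged from 149 to 1106 CPM, the latter in a cluster of 765 cells. The Slc7a11 Srxn1 Il1rn cluster had 235 CPM, so it did not lead all of these. In the CDA-HFD Egr2 fl/fl mouse, gated Ly6Chi monocyte-like cells had a median of 70.1 CPM and a 90th percentile of 1055 CPM. Slc7a11 Srxn1 Il1rn macrophage-like cells had 252 and 2344 CPM.

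Clec4d, whose product MCL binds cord factor and forms a receptor complex with Mincle, had the same leading classes. It was at 2173, 1826, 2717 and 2165 CPM in neutrophil-like cells of the ND Egr2 fl/fl, ND Lyz2-Cre, CDA-HFD Egr2 fl/fl and CDA-HFD Lyz2-Cre mouse. The mice on the diets overlapped only narrowly in this class, since the ND Egr2 fl/fl value lay above that of the CDA-HFD Lyz2-Cre mouse. Slc7a11 Srxn1 Il1rn macrophage-like cells were at 821 and 882 CPM and Gpnmb Vcam1 Trem2 macrophage-like cells at 119.9 and 169 CPM in the Egr2 fl/fl and Lyz2-Cre mouse on CDA-HFD. Ly6Chi monocyte-like cells were at 53.6, 106, 200.1 and 195 CPM and Ly6Clo monocyte-like cells at 24.1, 12.8, 181 and 172 CPM, higher on CDA-HFD in both classes. By clusters, Clec4d was at 468 and 567 CPM in Slc7a11 Srxn1 Il1rn macrophage-like, 59.8 and 89.2 CPM in Gpnmb Vcam1 Trem2 macrophage-like and 79.5 and 94.5 CPM in Ly6Clo monocyte-like cells on CDA-HFD. A Clec4d count was present in 94.96% of neutrophil-like and 89.5% of Slc7a11 Srxn1 Il1rn macrophage-like cells against 9.45% of T or NK cell-like cells (92.3%, 73.3% and 2.36% after thinning).

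Clec4n, encoding the mannan receptor Dectin-2, differed from both in that Kupffer cell-like cells carried it. It was at 248 and 256 CPM in Kupffer cell-like cells of the Egr2 fl/fl and Lyz2-Cre mouse on ND, and at 749.8 and 896 CPM in Slc7a11 Srxn1 Il1rn macrophage-like cells on CDA-HFD. Gpnmb Vcam1 Trem2 macrophage-like cells, at 128 and 152 CPM, were below both of these classes. In neutrophil-like cells Clec4n was at 123 and 163 CPM on ND and at 785 and 676 CPM on CDA-HFD, with no overlap between diets. By clusters, the Slc7a11 Srxn1 Il1rn macrophage-like values were 367 and 487 CPM. A Clec4n count was present in 83.7% of Slc7a11 Srxn1 Il1rn macrophage-like and 81.4% of Kupffer cell-like cells (64.8% and 44.1% after thinning), against 7.09% of T or NK cell-like cells (4.72%).

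Clec7a, encoding the β-glucan receptor Dectin-1, was carried by all the monocyte-like, macrophage-like, neutrophil-like and cDC2-like classes. Neutrophil-like cells were at 1695, 1294, 1658 and 1467 CPM with both diets in one range, Gpnmb Vcam1 Trem2 macrophage-like cells at 1304 and 861 CPM, and Slc7a11 Srxn1 Il1rn macrophage-like cells at 1525 and 919 CPM in the Egr2 fl/fl and Lyz2-Cre mouse on CDA-HFD. In these 3 classes the ranges over mice overlapped. Ly6Chi monocyte-like cells were at 500.3, 364, 714 and 654 CPM, Ly6Clo monocyte-like cells at 217, 282, 613 and 622 CPM, and cDC2-like cells at 217.5, 241, 419.9 and 349.8 CPM. All 3 classes were higher in both mice on CDA-HFD than in both on ND. A Clec7a count was present in 94.9% of Gpnmb Vcam1 Trem2 macrophage-like cells (79.5% after thinning) and 11.8% of T or NK cell-like cells (5.51%).

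Clec12a, an inhibitory receptor that binds uric acid crystals, was carried by both monocyte-like and macrophage-like cells. It was at 569 and 667 CPM in Gpnmb Vcam1 Trem2 macrophage-like cells, 477 and 526 CPM in Kupffer cell-like cells, 439.7, 426, 375 and 482 CPM in Ly6Chi and 341, 402, 358 and 450 CPM in Ly6Clo monocyte-like cells. The range of Ly6Chi monocyte-like cells overlapped those of Kupffer cell-like and of Ly6Clo monocyte-like cells. Neutrophil-like cells were lower, at 239, 213, 125 and 146 CPM, with both mice on CDA-HFD below both on ND. A Clec12a count was present in 95.3% of Kupffer cell-like cells (70.4% after thinning), 21.8% of the shallower neutrophil-like cells (17.7%) and 11.0% of T or NK cell-like cells (7.09%).

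Clec4a1 and Clec4a3, neighbouring genes of the DCIR family, had their highest levels in Ly6Clo monocyte-like cells, which patrol the vessel wall. Clec4a3 was at 1066, 800.4, 649 and 859.9 CPM there and at 513, 534, 452 and 552 CPM in Ly6Chi monocyte-like cells, so all 4 mice were higher in the first class than any in the second. Clec4a1 was at 443, 494, 377 and 460 CPM in Ly6Clo and at 230.0, 298, 238 and 292 CPM in Ly6Chi monocyte-like cells, again without overlap. In Kupffer cell-like cells both were lower in the Lyz2-Cre mouse, with 227 and 164 CPM of Clec4a1 and 419 and 333 CPM of Clec4a3. A count of Clec4a3 was present in 93.3% of Ly6Clo monocyte-like cells (79.9% after thinning) and 5.51% of T or NK cell-like cells (2.36%).

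The sugar-binding lectins Cd209a, Clec10a and Mgl2 were highest in cDC2-like cells in all 4 mice. Cd209a, a mouse relative of DC-SIGN, was at 855, 1152, 753 and 806 CPM in cDC2-like cells and was one of the genes that set this class apart most. In Ly6Chi monocyte-like cells it was at 171 and 173 CPM on ND and at 32.4 and 34.1 CPM on CDA-HFD, with no overlap. Only a minority of these cells carried it. In the Egr2 fl/fl and Lyz2-Cre mouse a Cd209a count was present in 15.4% and 15.8% of them on ND. On CDA-HFD it was present in 6.995% and 5.59%, near the share of T or NK cell-like cells given below. After thinning these shares were 13.1% and 11.6% on ND and 3.42% and 2.86% on CDA-HFD. The median cell had 0 CPM in all 4 mice. Clec10a, which binds galactose and N-acetylgalactosamine, was at 191, 282, 182 and 250 CPM in cDC2-like cells and, in Ly6Chi monocyte-like cells, at 74.8 and 42.0 CPM on ND and 17.6 and 18.7 CPM on CDA-HFD. Mgl2, its paralog, was at 251 and 324 CPM in cDC2-like cells on ND and at 118 and 133 CPM on CDA-HFD. A count was present in 76.6% of cDC2-like cells for Cd209a, 49.7% for Clec10a and 25.6% for Mgl2 (60.4%, 30.1% and 17.7% after thinning). In T or NK cell-like cells the shares were 6.30%, 1.57% and 1.57% (2.36%, 0% and 1.57%).

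Over all cells, the level of each lectin is the sum of what its classes add, and fewer cells of a class and less RNA per cell cannot be told apart in it. Clec4e was at 39.3 CPM in the ND Egr2 fl/fl mouse, 28.3 CPM in the ND Lyz2-Cre mouse, 287 CPM in the CDA-HFD Egr2 fl/fl mouse and 261 CPM in the CDA-HFD Lyz2-Cre mouse. In the CDA-HFD Egr2 fl/fl mouse neutrophil-like cells added 80.4 CPM of Clec4e (28.0%), Ly6Chi monocyte-like cells 68.2 CPM (23.8%), cells in no class 61.4 CPM (21.4%) and Slc7a11 Srxn1 Il1rn macrophage-like cells 50.9 CPM (17.8%). In the CDA-HFD Lyz2-Cre mouse Ly6Chi monocyte-like cells came first with 80.9 CPM (31.0%), followed by cells in no class with 60.4 CPM (23.2%), while neutrophil-like cells added 51.8 CPM (19.9%) and Slc7a11 Srxn1 Il1rn macrophage-like cells 37.1 CPM (14.2%). No single class made up most of the Clec4e of either mouse on CDA-HFD.

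For Clec4d, neutrophil-like cells added 60.1% and 72.2% of the level in the Egr2 fl/fl and Lyz2-Cre mouse on ND and 35.2% and 27.5% on CDA-HFD. Cells in no class added 27.7% of Clec4d in the CDA-HFD Lyz2-Cre mouse. For Clec4n and Clec7a the source with the largest share differed between the diets. Kupffer cell-like cells added 82.1% and 86.2% of Clec4n on ND. On CDA-HFD cells in no class added the most Clec4n, 32.6% and 35.8%, followed by Slc7a11 Srxn1 Il1rn macrophage-like cells with 31.0% and 23.8%. For Clec7a, Kupffer cell-like cells added 60.4% and 62.4% on ND, while cells in no class again added the most on CDA-HFD, 331 of 923 CPM in the Egr2 fl/fl and 235 of 679 CPM in the Lyz2-Cre mouse. Of Cd209a, cDC2-like cells added 47.6% to 54.8% in the 4 mice.

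**Figure D2:**
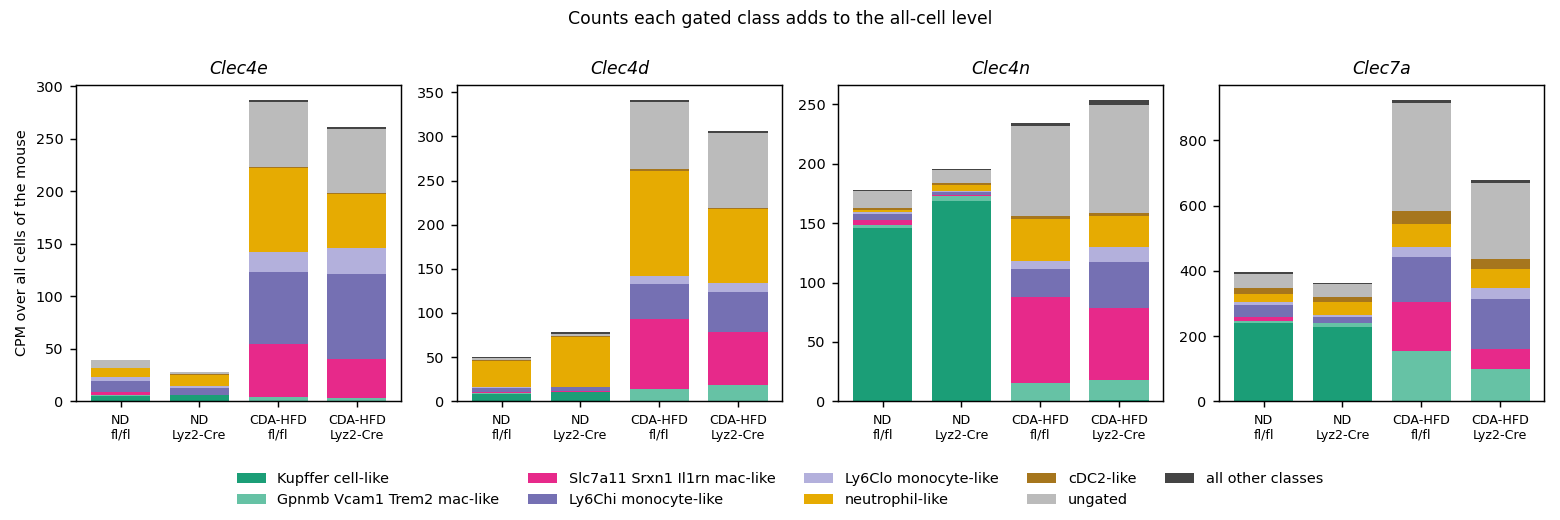
Stacked bars of the CPM that each class adds to the all-cell level of Clec4e, Clec4d, Clec4n and Clec7a, 1 bar per mouse. Kupffer cell-like cells hold most of the Clec4n and Clec7a bars on ND, while on CDA-HFD the Clec4e bars are shared by neutrophil-like, Ly6Chi monocyte-like, Slc7a11 Srxn1 Il1rn macrophage-like and ungated cells.

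The diet comparison asked how the lectins differed between CDA-HFD and ND. In Egr2 fl/fl mice, Clec4e, Clec4d and Clec7a were at least 1.5-fold higher on CDA-HFD over all cells and no member was 1.5-fold lower. That is 3 of 10 members, where 9.04% of 10091 genes with at least 500 counts were higher by the same mark and 17.3% lower. Clec4e was 7.30-fold [6.89 to 7.73], Clec4d 6.75-fold [6.42 to 7.11] and Clec7a 2.34-fold [2.30 to 2.38] higher. The other 7 members lay between 0.760-fold (Mgl2) and 1.31-fold (Clec4n), and the median over the 10 members was 1.08 beside 0.917 over all genes tested. In Lyz2-Cre mice the same 3 members passed, where 10.3% of 10194 genes were higher and 18.3% lower. Clec4e was 9.20-fold [8.57 to 9.89], Clec4d 3.92-fold [3.75 to 4.09] and Clec7a 1.87-fold [1.83 to 1.91] higher, and the other 7 lay between 0.790-fold (Mgl2) and 1.35-fold (Clec4a1).

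The sizes of these all-cell differences moved with the cells counted. Without Kupffer cell-like cells, Clec4e was 3.46-fold higher in Egr2 fl/fl and 3.96-fold in Lyz2-Cre mice, and Clec4d 3.32-fold and 1.54-fold. Clec4n then came to 3.01-fold and 3.19-fold, Cd209a to 0.474-fold and 0.367-fold, Clec10a to 0.549-fold and 0.527-fold, and Mgl2 to 0.316-fold and 0.277-fold. Without neutrophil-like cells Clec4d was 11.3-fold and 10.3-fold higher. As a mean of cells, which gives shallow and deep cells the same weight, Clec4d was 3.98-fold and 1.88-fold higher, Clec4n 2.198-fold and 1.68-fold, and Clec4e in Lyz2-Cre mice 5.999-fold.

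Within Ly6Chi monocyte-like cells of Egr2 fl/fl mice, 3 of 8 members with enough counts were higher on CDA-HFD and 1 was lower, where 9.34% of genes were higher and 6.75% lower. Clec4d was 3.73-fold [3.13 to 4.47], Clec4e 2.37-fold [2.13 to 2.65] and Clec4n 1.76-fold [1.4996 to 2.08] higher, and Cd209a was at 0.190 of its ND level [0.167 to 0.216]. Clec7a was at 1.43-fold, below the mark, and at 1.62-fold by clusters, past it. With the stricter gate the Cd209a ratio was 0.114. By the marker gate a Cd209a count was present in 15.4% of Ly6Chi monocyte-like cells on ND and 6.995% on CDA-HFD. The Cd209a ratio therefore rests on a minority of the class. Within Ly6Clo monocyte-like cells 4 of 7 members were higher and 1 lower, where 10.4% of genes were higher and 9.94% lower. Clec4d was 7.49-fold [5.10 to 11.4], Clec4e 3.98-fold [3.29 to 4.86], Clec4n 3.20-fold [2.43 to 4.30] and Clec7a 2.82-fold [2.47 to 3.23] higher, and Clec4a3 was 0.609-fold [0.568 to 0.652]. By clusters the Ly6Clo values of Clec4d and Clec4n were 4.62-fold and 1.51-fold. In both monocyte-like classes the 3 lectins that pair with the Fc receptor gamma chain were among those higher on CDA-HFD.

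Neutrophil-like cells of Egr2 fl/fl mice had 2 of 5 members higher and 1 lower, where 18.7% of genes were higher and 13.9% lower. Clec4n was 6.39-fold [4.89 to 8.50] and Clec4e 3.21-fold [2.83 to 3.65] higher, Clec12a was 0.522-fold [0.423 to 0.651], and Clec4d (1.25-fold) and Clec7a (0.978-fold) were within the mark. The Clec4n ratio rested on 55 counts on ND and was 11.6-fold without the cells of highest doublet score and 9.87-fold as a mean of cells. In neutrophil-like cells of Lyz2-Cre mice Clec4e was 3.93-fold and Clec4n 4.16-fold higher and Clec12a was 0.687-fold, with 2 of 5 members higher and 0 lower, where 14.2% of genes were higher and 9.12% lower. This Clec12a ratio was lower than the mark with a stricter gate (0.657), as a mean of cells (0.538) and without the top doublet scores (0.530). In cDC2-like cells of Egr2 fl/fl mice 1 of 7 members was higher and 1 lower, where 8.03% of genes were higher and 6.63% lower. These were Clec7a, 1.93-fold [1.77 to 2.11], and Mgl2, 0.471-fold [0.427 to 0.521]. Cd209a and Clec10a were 0.880-fold and 0.952-fold there, and 0.590-fold and 0.622-fold by clusters, both past the mark. Clec4a3 was there at 1.47-fold, and at 1.66-fold with the stricter gate, and Clec4a1 at 0.906-fold, and at 0.655-fold by clusters.

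Ly6Chi monocyte-like, Ly6Clo monocyte-like and cDC2-like cells of the Lyz2-Cre mouse on ND were fewer than 100 each, and their ratios are given as values only. Kupffer cell-like cells, with 8 and 17 cells on CDA-HFD, were not compared between diets. Clec4e was 2.57-fold, Clec4d 1.83-fold, Clec4n 3.31-fold, Clec7a 1.80-fold and Cd209a 0.198-fold in Ly6Chi monocyte-like cells. In Ly6Clo monocyte-like cells Clec4e was 4.95-fold, Clec4d 13.5-fold, Clec4n 6.23-fold, Clec7a 2.204-fold and Clec4a3 1.07-fold. Mgl2 was 0.412-fold in cDC2-like cells.

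**Figure D3:**
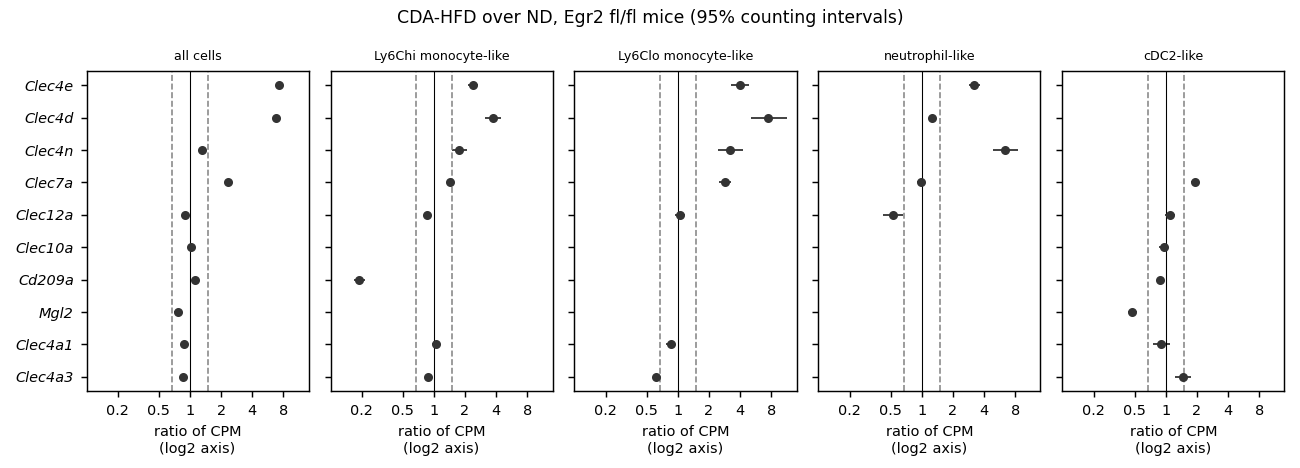
Ratio of CPM on CDA-HFD over ND in Egr2 fl/fl mice (log axis) for members with at least 500 counts, over all cells and in 4 classes, with 95% counting intervals; dashed lines mark 1.5-fold. Clec4e is at 7.30 over all cells and between 2.37 and 3.98 in the 3 monocyte-like and neutrophil-like panels, and Cd209a is at 0.190 in Ly6Chi monocyte-like cells.

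The genotype comparison asked how the lectins differed when myeloid cells carried Cre for the floxed Egr2. On CDA-HFD, none of the 10 members passed 1.5-fold over all cells, where 1.98% of 10860 genes passed. Clec7a was furthest below 1, at 0.735-fold [0.727 to 0.743] in the Lyz2-Cre mouse, and Clec4a1 (1.31-fold) and Clec4a3 (1.28-fold) furthest above. Clec4e was at 0.909-fold and Clec4d at 0.897-fold. This comparison and the diet comparisons share the mice on CDA-HFD.

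Clec7a was the member that passed the mark within the macrophage-like classes. In Slc7a11 Srxn1 Il1rn macrophage-like cells it was at 1525 CPM in the Egr2 fl/fl and 919 CPM in the Lyz2-Cre mouse, a ratio of 0.603 [0.584 to 0.622], and was the 1 of 7 members past the mark, where 1.53% of 3461 genes were lower and 1.47% higher. In Gpnmb Vcam1 Trem2 macrophage-like cells it was at 1304 and 861 CPM, a ratio of 0.660 [0.643 to 0.679], also 1 of 7, where 1.47% of genes were lower and 1.47% higher. This second value lay close to the mark and was 0.733 by clusters and 0.695 with a stricter gate. Clec7a was at 0.916-fold in Ly6Chi monocyte-like, 0.885-fold in neutrophil-like and 0.833-fold in cDC2-like cells. It was at 1.02-fold [0.964 to 1.07] in Ly6Clo monocyte-like and 0.965-fold [0.854 to 1.09] in mature dendritic cell-like cells, with both intervals across 1.

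Clec4e did not pass the mark on CDA-HFD in any class where it had at least 500 counts. In mature dendritic cell-like cells, with 57 and 44 counts, its ratio was 1.60 [1.06 to 2.43]. The ratio of Clec4e was 1.04 [0.998 to 1.09] in Slc7a11 Srxn1 Il1rn macrophage-like cells, 0.951 [0.811 to 1.11] in Gpnmb Vcam1 Trem2 macrophage-like cells, 0.998 in Ly6Chi monocyte-like cells and 0.733 [0.706 to 0.760] in neutrophil-like cells. By clusters, Ly6Clo monocyte-like cells gave 1.53 for Clec4e and 3.17 for Clec4n where the marker gate gave 1.03 and 1.35. In Ly6Chi monocyte-like cells 0 of 9 members passed, where 2.28% of genes did, with Clec4n the highest at 1.45-fold and Clec12a at 1.29-fold. Without the top doublet scores this Clec4n ratio was 1.52, past the mark. No member passed in Ly6Clo monocyte-like (0 of 7, 1.52% of genes), neutrophil-like (0 of 5, 6.18%) or cDC2-like cells (0 of 7, 2.14%), where Clec10a and Clec4a3 were at 1.37-fold, the latter at 1.55-fold as a mean of cells. Clec4d in Gpnmb Vcam1 Trem2 macrophage-like cells was at 1.41-fold, and 1.80-fold with the stricter gate.

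**Figure D4:**
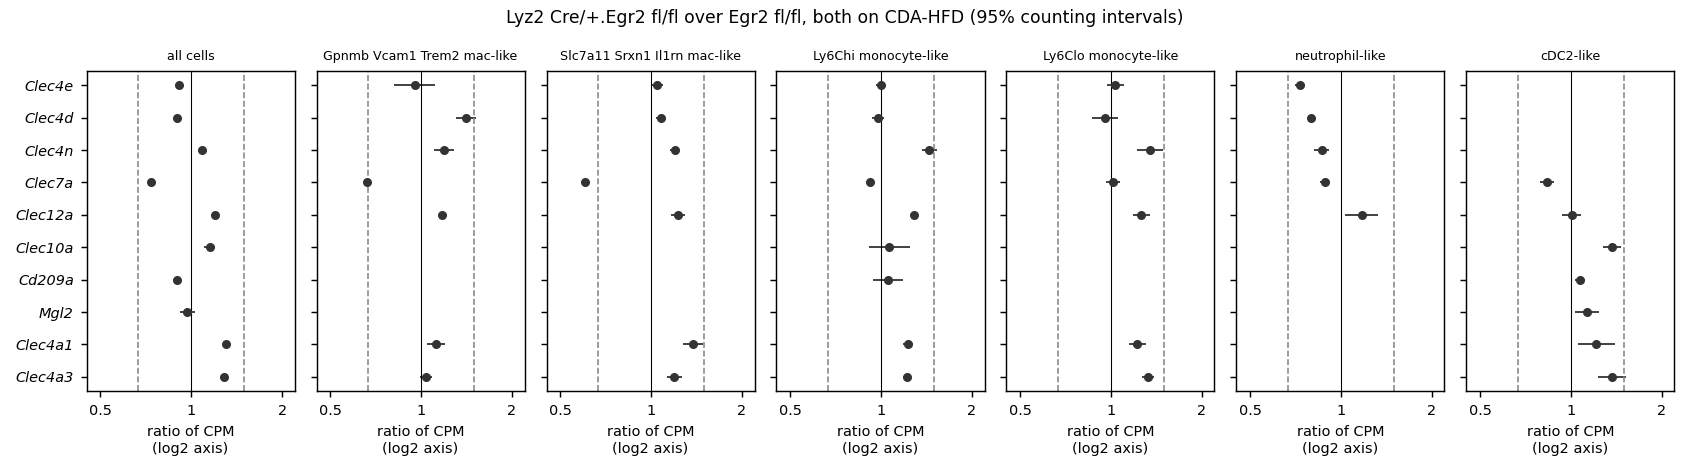
Ratio of CPM in the Lyz2-Cre over the Egr2 fl/fl mouse on CDA-HFD (log axis) for members with at least 500 counts, over all cells and in 6 classes, with 95% counting intervals; dashed lines mark 1.5-fold. Clec7a lies at 0.603 and 0.660 in the macrophage-like panels, and the points of the other members stay within the dashed lines.

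On ND, 1 of 10 members passed over all cells, where 2.05% of 8653 genes were higher and 1.68% lower. Clec4d was 1.55-fold [1.45 to 1.65] higher in the Lyz2-Cre mouse, which had a larger share of neutrophil-like cells. Without neutrophil-like cells the Clec4d ratio was 1.10, while Clec4e went from 0.721-fold to 0.579-fold. Within neutrophil-like cells Clec4d was at 0.841-fold and Clec4e at 0.598-fold [0.504 to 0.711], the latter being 1 of 3 members with enough counts, where 4.62% of genes were lower and 1.28% higher. Clec4e in neutrophil-like cells was 0.693-fold by clusters. In Kupffer cell-like cells 0 of 7 members passed, where 2.57% of genes did. Clec4a1 was lowest at 0.722-fold [0.689 to 0.757], followed by Clec4a3 at 0.794-fold and Clec7a at 0.847-fold.

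Mincle and CD11c were read together as surface markers by the study within a flow gate of Ly6Clo F4/80+ cells without Ly6G or Tim4, which leaves out neutrophils. Here cells with counts of both Clec4e and Itgax were counted in each class after thinning to 3000 counts. In Slc7a11 Srxn1 Il1rn macrophage-like cells on CDA-HFD, Clec4e was detected in 49.4% of cells of the Egr2 fl/fl and 49.6% of the Lyz2-Cre mouse, and Itgax in 37.0% and 22.9%. Both were detected in 17.2% [13.8 to 21.0] and 11.3% [8.22 to 15.1] of cells, where independent detection of the genes would give 18.3% and 11.4%. Gpnmb Vcam1 Trem2 macrophage-like cells had Itgax in 23.2% and 12.6% but Clec4e in only 7.46% and 7.99%, and both in 1.38% and 2.06%. Neutrophil-like cells had both in 10.5% and 8.77%, where independent detection would give 10.7% and 8.67%, and Ly6Clo monocyte-like cells in 8.93% and 6.22%. As a background over the 4 mice, Clec4e was detected in 3.15% of T or NK cell-like, 3.03% of B cell-like and 7.07% of endothelial cell-like cells. The last share is near those of Gpnmb Vcam1 Trem2 macrophage-like cells. Itgax was detected in 4.55% [0.947 to 12.7] of B cell-like and 3.03% [0.629 to 8.60] of endothelial cell-like cells over the 4 mice. T or NK cell-like cells had Itgax in 20.5% [13.8 to 28.5], above the neutrophil-like shares and the 12.6%. NK cell genes such as Gzma and Ncr1 led that class, though the sort was against NK1.1 and CD90.2. NK cells can carry CD11c, and whether this lies behind the 20.5% was not tested. The Itgax shares of neutrophil-like cells (13.3% and 12.0%) and of both macrophage-like classes were above the endothelial interval, with the 12.0% and 12.6% within that of the B cell-like cells. Itgax itself was 0.510-fold in Slc7a11 Srxn1 Il1rn macrophage-like and 0.322-fold in Gpnmb Vcam1 Trem2 macrophage-like cells of the Lyz2-Cre over the Egr2 fl/fl mouse on CDA-HFD.

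**Figure D5:**
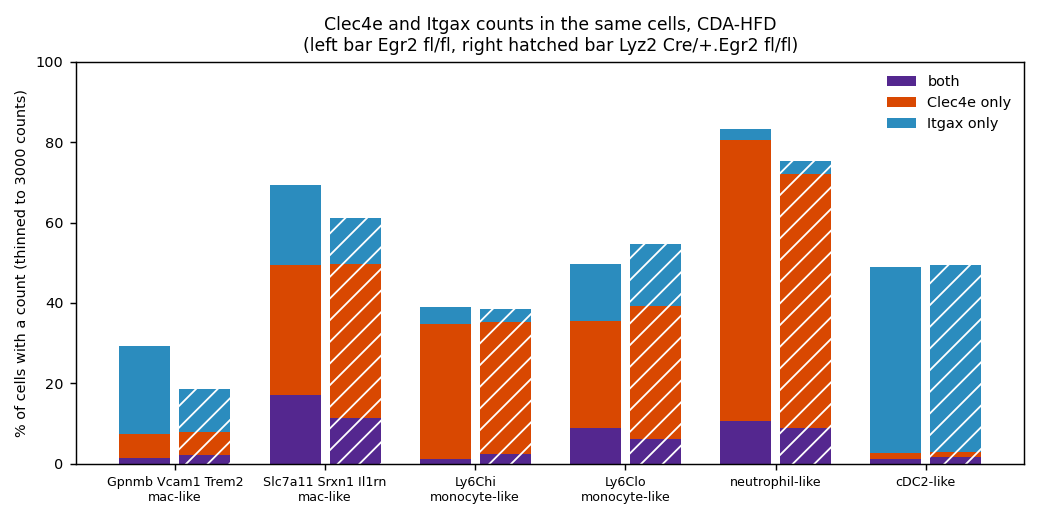
Percent of cells, thinned to 3000 counts, with counts of both Clec4e and Itgax, of Clec4e only or of Itgax only, in 6 classes on CDA-HFD; left bars are the Egr2 fl/fl mouse and hatched right bars the Lyz2-Cre mouse. The shares with both are 17.2% and 11.3% in Slc7a11 Srxn1 Il1rn macrophage-like cells and 10.5% and 8.77% in neutrophil-like cells.

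Clec4e and Clec4d, which encode partners of one receptor complex, were detected together in 41.1% and 40.8% of Slc7a11 Srxn1 Il1rn macrophage-like cells of the Egr2 fl/fl and Lyz2-Cre mouse on CDA-HFD. In Ly6Chi monocyte-like cells they were detected together in 15.4% [13.5 to 17.5] and 14.9%, and in Ly6Clo monocyte-like cells in 13.2% and 12.9%. Independent detection would give 36.8% and 36.4% in the first class, 9.41% and 9.46% in Ly6Chi and 7.84% and 8.62% in Ly6Clo monocyte-like cells. Neutrophil-like cells, the class highest in both genes, had both in 76.5% [73.5 to 79.4] and 65.6% [61.998 to 69.1], where independent detection would give 75.8% and 65.4%.

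Across 26 sums of a class in a mouse with at least 50 cells, Clec4a1 and Clec4a3 followed each other most closely of all member pairs (Pearson r of log2(CPM + 1) = 0.98), and Clec4d and Clec4e had r = 0.87 and Cd209a and Mgl2 r = 0.84. These points share one capture and 4 mice, and sums of the same class are not independent. Of 10842 genes compared, those most like Clec4e were Hp (haptoglobin, r = 0.94), Gda (0.93) and Slc16a3 (a lactate transporter, 0.93). Those most like Clec4d were Gabarap (0.93) and Pkm (0.92), and Slc7a11, itself a gate marker, was among its nearest 5. Ninj1 (0.95) and Fth1 (ferritin heavy chain, 0.92) were most like Clec4n, and Ubtd1 (0.88) most like Clec7a. Cybb, the NADPH oxidase subunit gp91phox, was nearest to both Clec4a1 (0.97) and Clec4a3 (0.98), Asah1 to Clec12a (0.94), Smim5 to Cd209a (0.85), Bex6 to Mgl2 (0.89) and Irf4 to Clec10a (0.78).

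Of 8 adaptor and signalling genes of the activating lectins, 1 was higher on CDA-HFD over all cells and 0 lower in each genotype, where 9.04% of all genes tested were higher and 17.3% lower in Egr2 fl/fl mice and 10.3% and 18.3% in Lyz2-Cre mice. This was Malt1, the paracaspase of the Card9 complex, at 1.77-fold in Egr2 fl/fl and 1.76-fold in Lyz2-Cre mice. Fcer1g was at 0.977-fold and 0.987-fold, Syk at 0.909-fold and 0.948-fold, and Card9 at 1.23-fold and 1.45-fold. Bcl10, the partner of Malt1, was at 1.29-fold and 1.47-fold and Tyrobp (DAP12) lowest at 0.889-fold and 0.845-fold. The median over the 8 genes was 1.05 and 1.17, beside 0.917 and 0.912 over all genes tested. On CDA-HFD Malt1 was at 0.665-fold in the Lyz2-Cre over the Egr2 fl/fl mouse, the 1 of 8 past the mark there, where 1.98% of all genes passed, and none of the 8 passed on ND, where 2.05% of all genes were higher and 1.68% lower. The 3 phosphatases that inhibitory lectins recruit did not pass the mark over all cells in any of the 4 comparisons, nor did the 2 genes linked to endogenous Mincle ligands, Sap130 (0.788-fold and 0.909-fold with diet) and the glucosylceramide synthase gene Ugcg (1.33-fold and 1.27-fold).

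Of the NF-kB output genes, which many receptors besides these lectins induce, 8 of the 10 with enough counts were higher on CDA-HFD in each genotype and 1 was lower, beside 9.04% of all genes higher and 17.3% lower in Egr2 fl/fl mice and 10.3% and 18.3% in Lyz2-Cre mice. Cxcl2, a neutrophil chemokine, was 13.04-fold and 14.2-fold higher in Egr2 fl/fl and Lyz2-Cre mice, and Ptgs2 8.31-fold and 11.0-fold. Il12b was 3.73-fold and 15.0-fold higher. Il6 was 0.212-fold and 0.230-fold and Il10 1.08-fold and 1.42-fold. The median of the list was 3.59 and 3.53. With genotype, Cxcl2 was 0.646-fold on CDA-HFD, the 1 of 10 past the mark (1.98% of all genes), and Il1b, Cxcl2 and Ptgs2 were lower on ND, 3 of 7 (1.68% of all genes).

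Of 14 other C-type lectins, 8 had enough counts in the diet comparison of Egr2 fl/fl mice, and 2 were higher and 4 lower, beside 9.04% and 17.3% of all genes. Clec5a, which pairs with DAP12, was 2.98-fold and Clec4b1 1.60-fold higher, while Mrc1, the mannose receptor, was 0.121-fold and Cd302 0.307-fold. In Lyz2-Cre mice 2 of 9 were higher and 4 lower, beside 10.3% and 18.3% of all genes, with Clec5a at 3.19-fold, Clec4b1 at 2.19-fold and Mrc1 at 0.115-fold. Cd209f, which Kupffer cells are known to express, had 1438 counts (51.7 CPM) in the ND Lyz2-Cre mouse, 333 counts (10.4 CPM) in the ND Egr2 fl/fl mouse and 14 and 10 counts in the Lyz2-Cre and Egr2 fl/fl mouse on CDA-HFD. Its genotype ratio on ND was 4.97 [4.41 to 5.61], the 1 of 8 higher (2.05% of all genes), and Clec9a was the 1 lower at 0.658 (1.68% of all genes). The median of the list was 0.783 in Egr2 fl/fl and 0.818 in Lyz2-Cre mice. With genotype on CDA-HFD 0 of 9 passed, beside 1.98% of all genes.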

How the data were processed

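Counts per gene and cell and counts per hashtag and cell were deposited by the authors, who made them from BD Rhapsody libraries mapped to mouse GRCm38 and analysed them with Seurat 4.1.1 and R 4.2.1, per the labels and the submitters' processing notes. The deposited counts are whole numbers and not normalized. Whether they are molecules or reads is not clear from the sources used here. The matrix held 16786 barcodes, including 1392 that the authors had named doublets of hashtags, which were left out. The 7 hashtag columns that no label names were not used. After removal of cells with over 25% mitochondrial counts, the limit of the study's methods, 15384 cells remained, each assigned to 1 of 4 mice by its hashtag.

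Each cell was scored for 15 marker lists (92 of 96 genes measured) on log counts per 10000, and took the class of its best score if that was at least 0.3 and led by at least 0.05. Counts were summed by class and mouse and divided by the summed total, giving CPM with exact Poisson intervals. Ratios carry exact binomial intervals of the split of counts and shares carry Clopper-Pearson intervals, at 95%. All cover counting error only. Depth behind each mouse was 27840300 to 90124521 counts. With 1 mouse per group no test was made. A ratio of at least 1.5-fold either way was marked, among genes with at least 500 counts over both mice, and counted in classes of at least 100 cells per mouse. The share of all genes past the mark stands beside the count of each comparison in the results.

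Members and gene lists were chosen with earlier results of these data known. Named genes were the 10 members, Egr2 and Lyz2 as checks, examples from each list by the highest and lowest ratios with Fcer1g, Syk and Card9 added after their values were seen, and the nearest genes of each member by Pearson r over sums of at least 50 cells. Alternatives were a mean of cells, thinning to 3000 counts, clusters made without the members, a stricter gate (lead of 0.15), TMM scaling, a 2-fold mark, no minimum of counts beyond 1, other mitochondrial limits (10% or none), an own hashtag share of at least 90% and removal of the top 5% of doublet scores. The removal of neutrophil-like cells, of Kupffer cell-like cells and of cells with S100a9 or Retnlg counts was chosen after seeing the data. The doublet caller's own threshold marked too few cells to be used. The ratio script was tested on simulated counts. Python 3.11.15, numpy 2.4.6, scipy 1.17.1, scanpy 1.11.5, R 4.3.3, Seurat 5.3.0 and edgeR 4.0.16 were used.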

Additional observations from a re-analysis of the deposited data

Results flagged for a closer look

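For 3 lectins an all-cell difference was opposite in direction in the mice compared with both counting intervals clear of 1, and these differences between groups were not tested, since each group is 1 mouse. Clec4d was 1.55-fold in the Lyz2-Cre over the Egr2 fl/fl mouse on ND and 0.897-fold on CDA-HFD. Neutrophil-like cells made up 12.2% of cells in the ND Lyz2-Cre and 6.21% in the ND Egr2 fl/fl mouse, and the ND ratio without them was 1.10. Clec4a1 was 0.868-fold on CDA-HFD over ND in Egr2 fl/fl and 1.35-fold in Lyz2-Cre mice. With genotype Clec4a1 was 0.844-fold on ND and 1.31-fold on CDA-HFD. Clec4a3, its neighbour on chromosome 6, was 0.863-fold and 1.31-fold with diet and 0.847-fold and 1.28-fold with genotype in the same order. Without Kupffer cell-like cells, which were 43.8% and 50.8% of cells in the ND mice, the diet ratios in Egr2 fl/fl mice were 1.17 for Clec4a1 and 1.07 for Clec4a3 and the ND genotype ratio of Clec4a1 was 1.12, so that these directions were no longer opposite, while the ND genotype ratio of Clec4a3 stayed below 1. The 4 comparisons share their mice, so the opposite signs of each gene are one observation.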

How the results depend on the processing

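Without Kupffer cell-like cells, members past 1.5-fold with diet went from 3 to 7 in each genotype (4 higher, 3 lower), beside 18.1% of all genes in Egr2 fl/fl and 17.4% in Lyz2-Cre mice. In Egr2 fl/fl mice the diet ratio of Clec12a came to 1.13, Clec4a1 to 1.17, Clec4a3 to 1.07 and Cd209a to 0.474, and in Lyz2-Cre mice Clec10a came to 0.527 and Cd209a to 0.367, each on the other side of 1. With genotype on ND, Clec7a then came to 1.06, Clec12a to 0.918 and Clec4a1 to 1.12. As a mean of cells, 5 members passed with diet in Egr2 fl/fl mice (4 higher, 1 lower, 25.9% of all genes), the diet ratio of Cd209a was 0.952 in Egr2 fl/fl and 0.914 in Lyz2-Cre mice, and the genotype ratio of Clec4n on CDA-HFD was 0.963. Thinning gave 0.958, 0.902 and 0.947 for these 3. The Cd209a ratio in Lyz2-Cre mice was 0.988 without the top 5% of doublet scores. The Clec4n level of neutrophil-like cells in the ND Egr2 fl/fl mouse was then 72.8 CPM. The Clec4e ratio with genotype on CDA-HFD was 1.01 without neutrophil-like cells. By clusters, Clec4a3 with diet in Ly6Chi monocyte-like cells of Egr2 fl/fl mice was 1.10 and Clec4n with genotype on CDA-HFD in Gpnmb Vcam1 Trem2 macrophage-like cells was 0.907. With a 2-fold mark, 0 members passed with genotype on ND. The cause of these moves was not tested.

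TMM scaling changed no direction of the 40 all-cell ratios, and took Clec4a1 with diet in Lyz2-Cre mice to 1.51, past the mark. Without cells whose own hashtag was under 90%, Clec4d with diet was 11.0-fold in Egr2 fl/fl and 6.89-fold in Lyz2-Cre mice. Levels by clusters moved beyond their counting interval in 150 of 250 values. No paired analysis was possible because each group is 1 mouse, and for the same reason no replicate could be left out. The precision is limited by 1 mouse per group, by classes of under 100 cells on ND and by the shallow neutrophil-like cells.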
